A study of Drosophila melanogaster with 3 samples.

Results

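Oxidative phosphorylation turns the energy of nutrients into ATP on the inner membrane of the mitochondrion. Complex I (NADH dehydrogenase) and complex II (succinate dehydrogenase) feed electrons to ubiquinone, complex III (cytochrome bc1) passes them to cytochrome c, complex IV (cytochrome c oxidase) gives them to oxygen, and complex V (ATP synthase) uses the resulting proton gradient. All 5 complexes except complex II mix subunits encoded in the nucleus with subunits encoded in the mitochondrial genome, so the RNA of both genomes is needed for a complete enzyme. In the fly midgut, stem cells and their daughters (progenitors) give rise to large absorptive enterocytes (ECs) and to hormone-secreting enteroendocrine cells (EEs).

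The nuclear genes described here are all genes of the deposited gene list whose symbol starts with ND- (complex I), Sdh (complex II), UQCR- (complex III), COX (complex IV) or ATPsyn (complex V). The rule gave 81 of 17738 genes, of which 40 belonged to complex I, 7 to complex II, 8 to complex III, 11 to complex IV and 15 to complex V. Of these, 18 carried the name of another subunit gene followed by an L and were set apart as restricted paralogs. The rule also took in Sdhaf3, which is an assembly factor and not a subunit, and it missed some genes of the same enzymes that have older names, such as blw (ATP synthase alpha), which are given separately.

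The intestine of *Drosophila melanogaster* was profiled by single-cell RNA sequencing at 3 stages to follow the maturation of the tissue and its circadian clock, with 1 library per stage prepared by a droplet kit (10x Genomics) that counts 3′ ends. The stages were early pupae (labelled as red-eye pupa), immature adults (labelled as day 1) and mature adults (labelled as day 7-8). All libraries were labelled as female, with the genotype given as CantonS in a per01 background (per01 is a mutant of the clock gene per without rhythms), and all were dissected at the start of the light phase (ZT0). The paper's text names CantonS alone, and its methods call the library of the middle stage pharate, a stage before eclosion. The number of animals per library was not given in the sources used here.

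With 1 library per stage no comparison could be tested, and each difference between stages is also a difference between libraries. The limits for a kept barcode were 200 to 4000 detected genes, 1000 to 100000 UMIs (unique molecular identifiers, a count of captured molecules), both exclusive, and under 25% of UMIs from mt: genes, the genes of the mitochondrial genome. This left 2013, 1197 and 1980 cells with 27026674, 21629263 and 47585248 UMIs in stage order, with median depths between 9343 and 14661 UMIs per cell. Levels are sums of UMIs over cells per 1000000 UMIs of the same cells (CPM). Each captured molecule is counted at its 3′ end, so levels were not divided by gene length, and a level compared between genes also depends on how well each 3′ end is annotated. Intervals in brackets are exact 95% intervals for counting error only, since cells are not replicates. The RNAs roX1 and roX2, made by males, had 127 and 54.1 CPM in the early pupa library, 8.18 and 1.66 CPM in the immature adult library, and 0.904 and 0.042 CPM in the mature adult library. The early pupa values go against its label of female alone, so a difference from early pupae may also be one of sex, which was not tested. Only 3 barcodes were shared between any libraries.

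Cells were placed in classes by fixed markers. The classes were EC-like, EE-like, VM-like (visceral muscle), PupC-like (a pupal type with ferritin and metallothionein genes) and progenitor-like, and a cell was assigned where the mean of its 5 highest markers of that class, scaled from 0 to 1, was over 0.4 and led the next class by over 0.1. No member and no mt: gene was used for this. The gates held 657 EC-like, 129 EE-like, 574 PupC-like, 87 VM-like and 396 progenitor-like cells in early pupae. They held 386 EC-like, 222 EE-like, 57 PupC-like and 410 progenitor-like cells in immature adults, and 1516 EC-like, 103 EE-like and 254 progenitor-like cells in mature adults. Between 94 and 170 cells per library stayed ungated, and groups under 50 cells are not described. Among the 10 leading genes of each gate, markers of its own class were found and of no other class, which gating on the same markers largely fixes. For EC-like cells these were 2 of the 10 in each library. Median EC scores were 0.506, 0.55 and 0.485 in EE-like cells in stage order, and 0.539 in PupC-like cells of early pupae. The leading genes of EC-like cells differed between libraries, with CG18179 and CG18180 in early pupae, Jon99Cii and alphaTry in immature adults and Jon25Bi and betaTry in mature adults, so a comparison of EC-like cells between stages sets cells with different leading genes side by side.

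Over all kept cells, the 81 genes together had 25106 CPM in early pupae (25046 to 25166), 31563 CPM in immature adults (31488 to 31638) and 20572 CPM in mature adults (20532 to 20613). Mature adults thus had the lowest summed level and immature adults the highest. No kept cell lacked a member UMI, and a median of 44, 54 and 52 of the 81 genes was detected per cell in stage order. Complex V held the largest part of the member UMIs, with 39.6%, 39.2% and 34.8% in stage order. Complex I followed with 27.1%, 26.0% and 27.5%, complex IV with 20.6%, 22.4% and 24.99%, complex III with 9.22%, 9.80% and 9.91%, and complex II with 3.47%, 2.72% and 2.87%.

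Of the 81 genes, 63 had at least 100 UMIs over all libraries, and 18 had fewer. The level of single subunits within a complex was not even. In complex V the highest member was ATPsynC, the c subunit that forms the rotating ring of the membrane part in many copies, with 2672, 3322 and 2032 CPM in stage order. It alone gave 10.6%, 10.5% and 9.88% of all member UMIs and ranked 85 among all genes. It lies on chromosome arm 3R from 31216145 to 31219630 (minus strand, BDGP6). ATPsynF, a small subunit of the membrane part, came next in complex V with 1495, 1562 and 684 CPM.

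In complex IV, COX8 had 1047, 1528 and 871 CPM and COX6B had 836, 1111 and 910 CPM in stage order. Both are small nuclear-encoded subunits around the catalytic core, which itself is made by mt:CoI, mt:CoII and mt:CoIII. The 7 complex IV members other than restricted paralogs lay close together, the highest over the lowest being 1.85, 1.93 and 1.74. In complex III the highest members were UQCR-Q (567, 730 and 506 CPM) and UQCR-14 (399, 619 and 493 CPM), and the core proteins UQCR-C1 and UQCR-C2 were at 256 and 388 CPM in early pupae, 299 and 469 CPM in immature adults and 240 and 244 CPM in mature adults. In complex II, SdhC, a membrane anchor, had 290, 368 and 287 CPM, and SdhB, the iron-sulfur subunit, had 216, 187 and 120 CPM.

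Complex I had 33 members with at least 100 UMIs. The highest of these were ND-MLRQ, with 694, 1200 and 635 CPM, and ND-B12, an accessory subunit, with 598, 735 and 557 CPM. Genes were placed in a complex by symbol alone, and the place of ND-MLRQ in complex I was not checked. The 7 core subunits, which carry the flavin and the iron-sulfur clusters or lie next to them, had medians of 97.3, 126 and 83.7 CPM, below the medians of the 26 other members at 197, 240 and 177 CPM. At the low end stood ND-MNLL with 21.3, 15.7 and 13.2 CPM. ND-MNLL shares its whole annotated span with the gene CG45089 on the same strand (X, 7893053 to 7893798), so its counts are uncertain. Of members that are not restricted paralogs, ND-15, ND-MWFE, UQCR-Q and COX6B also overlap another protein-coding gene on the same strand, so their counts can be uncertain too. ND-B8, which is not a restricted paralog, had 2 UMIs in all libraries. Its gene on 2L (4454626 to 4455207) overlaps Gs1l on the opposite strand.

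**Figure D1:**
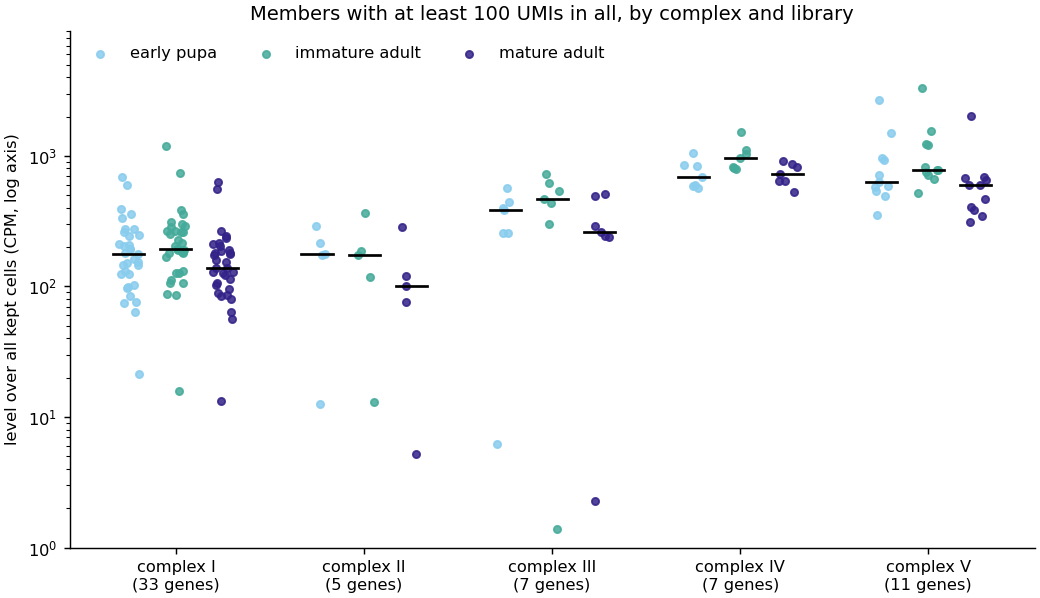
Level of each member with at least 100 UMIs in all libraries, over all kept cells (CPM, log axis), by complex and library, in stage order; each point is 1 gene and black lines are medians. The medians of complexes IV and V are the highest, ATPsynC is the top point in each library (2672, 3322 and 2032 CPM), and the lowest point in complex III is the restricted paralog UQCR-11L.

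The restricted paralogs had few or no UMIs. Many such copies are known in the fly for expression in the testis, and the 18 genes together had 266, 64 and 175 UMIs in stage order, or 505 of 2340154 member UMIs (0.0216%). Of the 18, 5 had no UMI in any library, namely ND-24L, ND-B14.5AL, UQCR-14L, COX6AL and ATPsynGL. For a count of 0 the interval reached 0.136 CPM in early pupae, 0.171 CPM in immature adults and 0.0775 CPM in mature adults. A further 8 had 1 to 13 UMIs in all: ND-20L, ND-49L, COX7AL and ATPsynCF6L with 1 each, ND-51L2 with 3, COX4L with 5, SdhAL with 6 and SdhBL with 10. Their partners were far above this, for example 4087, 4390 and 6035 for ND-20 and 15322, 17336 and 34813 for COX4.

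In complex I, ND-24, ND-49, ND-51 and ND-B14.5A had 2631, 2266, 3538 and 5487 UMIs in early pupae, 2760, 2279, 2735 and 5469 in immature adults, and 3984, 2686, 5467 and 8353 in mature adults, against at most 13 UMIs for any of their L copies in any library. ND-51L1 was the most abundant of these copies, with 11, 8 and 13 UMIs, and it overlaps Smurf on the same strand. In complex II, SdhA and SdhB had 4709 and 5847 UMIs in early pupae, 2566 and 4044 in immature adults, and 3625 and 5689 in mature adults. In complexes IV and V, the partners COX7A, levy, ATPsynCF6 and ATPsynG had between 14648 and 34751 UMIs per library.

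A single restricted paralog reached 100 UMIs. UQCR-11L, a copy of the small complex III subunit UQCR-11, had 169, 30 and 109 UMIs in stage order, against 11993, 11648 and 13831 UMIs for UQCR-11. In early pupae, 100 of the 169 UMIs lay in 30 PupC-like cells, up to 19 in 1 cell, and 56 lay in 1 ungated cell. In mature adults, 106 of the 109 lay in 93 EC-like cells. UQCR-11L is annotated on 2R from 8677219 to 8677661, inside Acsl on the same strand, so the source of its reads is uncertain. COX5BL had 1, 0 and 41 UMIs, of which 34 lay in 4 ungated cells of mature adults, up to 12 in 1 cell. It starts just past the end of COX5B on the same strand (2L, 6559431 to 6560133), and COX5B had 18697, 20679 and 30597 UMIs.

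Among complex V copies, ATPsynepsilonL had 37, 17 and 3 UMIs, and 29 and 17 of those in early pupae and immature adults were in progenitor-like cells. Its partner sun, the epsilon subunit, had 18836, 22957 and 22628 UMIs. ATPsynbetaL had 29, 5 and 4 UMIs spread over classes, up to 2 in 1 cell, against 26000, 26012 and 30950 UMIs for ATPsynbeta, the catalytic subunit. A list of 12 testis genes had 2.26, 3.05 and 1.95 CPM in sum over all cells.

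The stage comparison over all cells asked how the level of the nuclear genes as a set stood at each stage of maturation. Immature adults had a summed level 1.26 times that of early pupae (log2 0.33, 0.33 to 0.34), and mature adults had 0.652 times that of immature adults (log2 −0.62, −0.62 to −0.61) and 0.819 times that of early pupae (log2 −0.29). The direction of the last comparison turned with the processing. It was 0.13 with the 50 most abundant genes left out of the denominator and 0.02 with each cell weighing the same. The log2 ratio of mature adults over immature adults was −0.08 without the 50 most abundant genes in the denominator, which moved it close to 0. That of immature adults over early pupae turned to −0.07 where only EC-, EE- and progenitor-like cells were taken.

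Between immature adults and early pupae, 0 of 63 members counted were higher by over 2-fold, where 12.9% of all 8014 genes were, and 1, UQCR-11L, was lower by over 2-fold, where 16.2% of all genes were. A gene was counted where both libraries together had at least 100 UMIs. The median member log2 ratio was 0.31, against 0.07 for all genes, and 51 members were above 0. The members with the largest ratios were ND-AGGG (180 CPM in immature adults and 98.5 CPM in early pupae, log2 0.87), ND-MLRQ (1200 and 694 CPM, log2 0.79) and UQCR-6.4 (437 and 256 CPM, log2 0.77). The smallest were UQCR-11L (30 and 169 UMIs, log2 −2.17), SdhA, the flavoprotein of complex II (119 and 174 CPM, log2 −0.55), and ND-MNLL (15.7 and 21.3 CPM, log2 −0.44).

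Between mature adults and immature adults, 0 of 63 members were higher by over 2-fold, against 5.71% of all 7553 genes, and 4 were lower, against 50.8% of all genes. The median log2 ratio of the members was −0.57, against −1.01 for all genes. The 4 genes were Sdhaf3 (249 UMIs in mature adults and 281 UMIs in immature adults, log2 −1.31 of the levels), ATPsynF (684 and 1562 CPM, log2 −1.19), ND-AGGG (88.5 and 180 CPM, log2 −1.03) and ATPsyngamma, the central stalk of complex V (349 and 708 CPM, log2 −1.02). At the other end were UQCR-11L (log2 0.72), COX5A (815 and 829 CPM, log2 −0.02) and ND-B14.7 (102 and 107 CPM, log2 −0.07). The complexes ranged from −0.46 for complex IV to −0.79 for complex V.

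Between mature adults and early pupae, 0 of 63 members were higher by over 2-fold, against 7.73% of 8125 genes, and 5 were lower, against 46.6%. These were UQCR-11L (109 UMIs in mature adults and 169 UMIs in early pupae, log2 −1.45 of the levels), Sdhaf3 (5.23 and 12.5 CPM, log2 −1.26), SdhA (76.2 and 174 CPM, log2 −1.19), ATPsynF (684 and 1495 CPM, log2 −1.13) and ATPsyngamma (349 and 713 CPM, log2 −1.03). ND-B14.7 (102 and 74.1 CPM, log2 0.46), COX5A (815 and 600.0 CPM, log2 0.44) and COX4 (732 and 567 CPM, log2 0.37) had the largest ratios. Complex IV differed by −0.01 and complex II by −0.56.

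The libraries held different mixtures of cells. Within each library the EC-like cells had the highest summed level. In early pupae it was 43445 CPM in EC-like, 16100 in EE-like, 6097 in PupC-like, 17928 in VM-like and 17165 in progenitor-like cells. In immature adults it was 70738 CPM in EC-like, 18298 in EE-like and 19201 in progenitor-like cells, and in mature adults 21973, 12063 and 11997 CPM. Barcodes with at most 1000 UMIs, which were not kept and can hold free RNA, had 14017, 20581 and 21999 CPM in stage order.

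**Figure D2:**
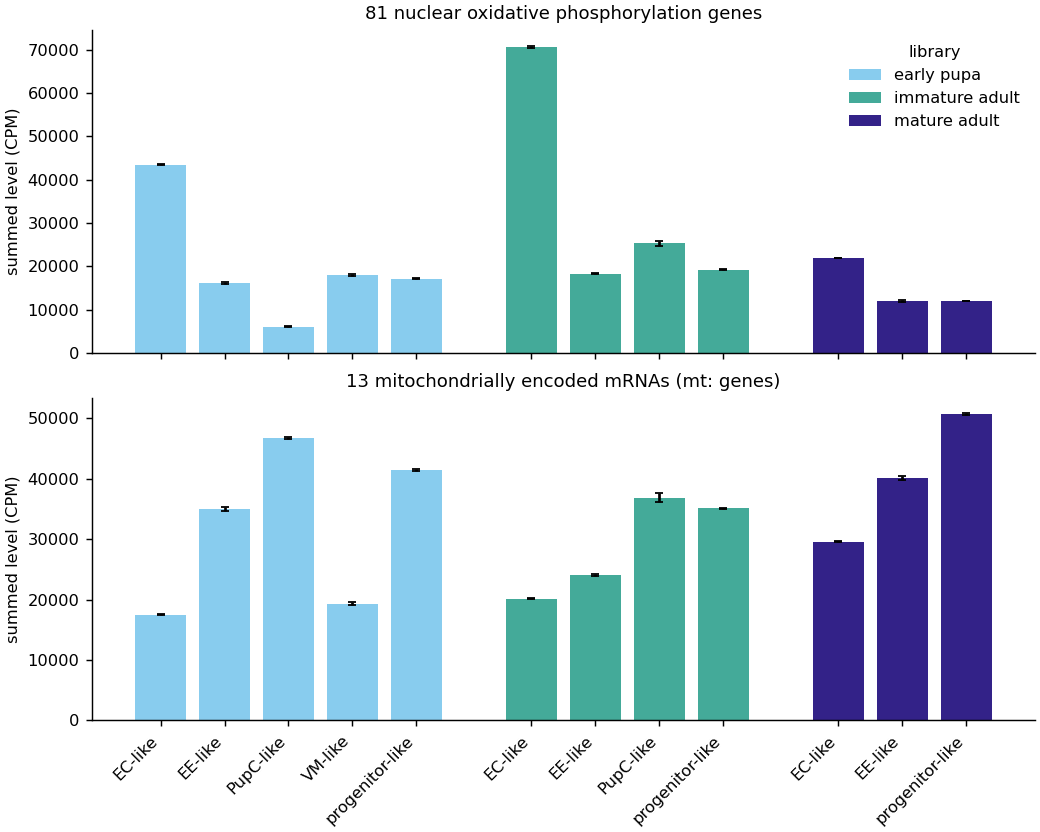
Summed level (CPM, from 0) of the 81 nuclear genes (top) and of the 13 mt: mRNAs (bottom) in each class and library; bars are sums over all cells of the class and whiskers are exact Poisson 95% intervals, for counting error only. EC-like bars are the tallest in each library in the top panel and lower than the progenitor-like bars in the bottom panel.

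EC-like cells had 2.53 times the summed level of progenitor-like cells in early pupae (log2 1.34, 1.33 to 1.35), 3.68 times in immature adults (log2 1.88, 1.87 to 1.89) and 1.83 times in mature adults (log2 0.87, 0.86 to 0.88). The direction was the same under all 9 alternatives tried, and the mature ratio was smallest, at log2 0.32, without ribosomal protein genes in the denominator. In early pupae, 45 of 62 members counted were higher in EC-like cells by over 2-fold, against 19.8% of all genes, and 0 were lower, against 38.5%. In immature adults 59 of 62 were higher, against 24.1%, and 0 lower, against 38.9%. In mature adults 24 of 63 were higher, against 16.4%, and 0 lower, against 58.8%. The median member log2 ratio was 1.40, 1.94 and 0.87 in the 3 libraries, where the median of all genes was −0.51, −0.50 and −1.38.

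All complexes were higher in EC-like cells. In early pupae the log2 ratio was 1.37 for complex I, 1.66 for complex II, 1.39 for complex III, 1.32 for complex IV and 1.30 for complex V. In immature adults it was 2.04, 1.92, 2.16, 1.98 and 1.67 for complexes I to V. In mature adults the complexes spread further apart, with 1.27 for complex IV and 1.05 for complex III at the top, 0.91 for complex I, 0.74 for complex II and 0.58 for complex V at the bottom. COX5A had 908 CPM in EC-like and 289 CPM in progenitor-like cells of mature adults (log2 1.65), whereas ATPsynC had 2094 and 1687 CPM (log2 0.31).

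ND-MNLL had the largest ratio of all members in each library. It had 14.6 CPM in EC-like and 2.46 CPM in progenitor-like cells of mature adults (log2 2.57, 1.81 to 3.45), with 45.6 and 2.28 CPM in immature adults and 47.4 and 3.92 CPM in early pupae. In mature adults UQCR-11L (log2 2.35, from 106 and 3 UMIs) and COX5A followed. The lowest ratios there were those of ND-49, a core subunit of complex I (53.9 CPM in EC-like and 74.2 CPM in progenitor-like cells, log2 −0.46), SdhA (74.0 and 88.3 CPM, log2 −0.25) and ND-20, another core subunit (128 and 127 CPM, log2 0.01). ND-49 and ND-20 were also among the 3 lowest in early pupae (log2 0.40 and 0.34) and in immature adults (log2 0.93 and 0.77).

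Genes of the same enzymes outside the naming rule were measured in the same cells. Complex III genes RFeSP, the iron-sulfur protein, and ox had log2 ratios of EC-like over progenitor-like cells of 1.91 and 1.98 in early pupae, 2.43 and 2.62 in immature adults, and 1.57 and 1.48 in mature adults. Cyt-c1, the cytochrome of complex III, had 1.47, 1.89 and 0.72 in stage order. For complex IV, levy had 1.82, 2.27 and 1.19, and cype 1.29, 2.02 and 1.12. The complex V genes blw and sun had 0.65 and 1.33 in early pupae, 0.93 and 2.17 in immature adults, and −0.26 and 0.66 in mature adults. Cyt-c-p, the somatic cytochrome c, differed from these, with 0.26 in early pupae, 2.98 in immature adults and 1.04 in mature adults, and its level in EC-like cells was 144, 2624 and 487 CPM in stage order. Cyt-c-d, the copy used in the testis, had 17, 4 and 1 UMIs, and of 10 such genes listed 9 were found in the files.

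**Figure D3:**
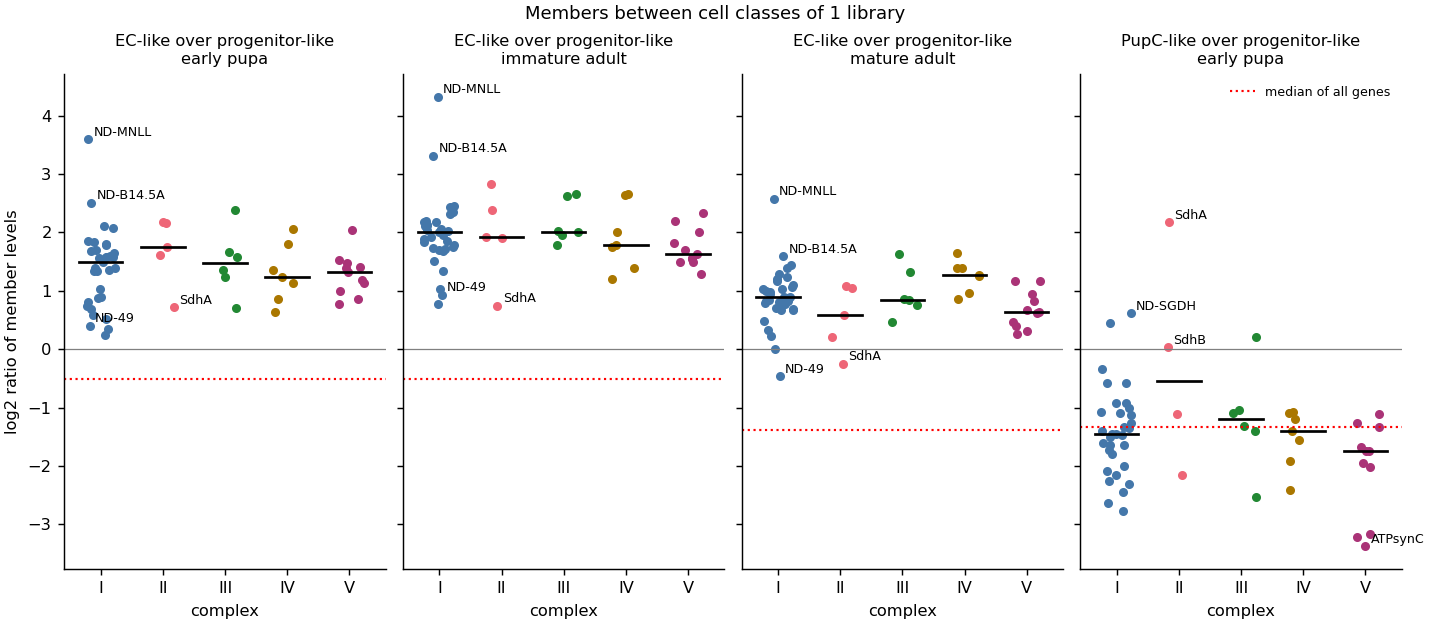
Log2 ratio of each member's level in EC-like over progenitor-like cells, by complex, in the 3 libraries, and in PupC-like over progenitor-like cells of early pupae; points are genes, black lines medians of a complex and red dotted lines the median of all genes. Members with under 100 UMIs in a pair and UQCR-11L are left out. Nearly all points of the first 3 panels lie above 0 while the median of all genes is below it, and in the PupC-like panel SdhA stands alone at 2.17.

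Beside the enzymes, the mitochondrial ribosome (symbols mRpL and mRpS) had 33 of 72 genes over 2-fold higher in EC-like cells of early pupae, 41 of 72 in immature adults and 0 of 72 in mature adults, where 19.8%, 24.1% and 16.4% of all genes were. Its median log2 ratios were 0.98, 1.07 and −0.59, each above the median of all genes in the same library (−0.51, −0.50 and −1.38). Of the TCA cycle list, 10 of 19 symbols were in the files, and 5, 5 and 1 of these 10 were over 2-fold higher, with medians of 0.95, 0.94 and −0.28. Cytoplasmic ribosomal protein genes (RpL and RpS) had medians of −0.44, −0.89 and −1.25, which was above the median of all genes in early pupae and mature adults and below it in immature adults. Of the carriers and regulators, 10 had enough UMIs, and 2, 2 and 0 of these were over 2-fold higher in EC-like cells in stage order. Of the same 10, 4, 5 and 7 were lower, where 38.5%, 38.9% and 58.8% of all genes were. These counts are near the shares of all genes. Medians were −0.43, −0.79 and −2.34. The phosphate carrier gene Mpcp2 had 502, 1145 and 410 CPM in EC-like cells, against 238, 432 and 343 CPM in progenitor-like cells. The ADP/ATP carrier gene sesB had 953, 3739 and 1030 CPM in EC-like cells, against 859.5, 1655 and 985 CPM in progenitor-like cells. By contrast, srl, the fly relative of the PGC-1 coactivators, had 12.4, 11.3 and 5.55 CPM in EC-like cells, against 36.1, 60.0 and 98.99 CPM in progenitor-like cells.

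EE-like cells stayed close to progenitor-like cells. Their summed level was 0.938, 0.953 and 1.01 times that of progenitor-like cells in stage order. Complex V was lower in EE-like cells in each library, with log2 ratios of −0.35, −0.44 and −0.36, and complex III was higher, with 0.25, 0.29 and 0.35. VM-like cells of early pupae had 1.04 times the level of progenitor-like cells. Only UQCR-6.4 of 60 members was higher by over 2-fold there (log2 1.12), against 12.0% of all genes, and 0 were lower, against 39.6%. A list of 6 hemocyte genes had 8816 CPM in VM-like and 275 CPM in progenitor-like cells, and its part in these values was not tested.

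PupC-like cells of early pupae had the lowest summed level of any class, 6097 CPM (6036 to 6158), which was 0.355 times that of progenitor-like cells (log2 −1.49, −1.51 to −1.48). Of 61 members counted, 50 were lower by over 2-fold and 2 higher. This has to be read against all genes, of which 56.6% were lower and 19.1% higher, with a median of −1.33 against −1.41 for members. The median of the members was close to that of all genes. The ratio stayed between −0.999 and −1.96 under the alternatives.

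The complexes differed from each other in PupC-like cells. The log2 ratio over progenitor-like cells was −1.22 for complex I, 0.39 for complex II, −1.18 for complex III, −1.49 for complex IV and −2.11 for complex V. Complex V made up 27.3% of member UMIs in PupC-like cells and 41.8% in progenitor-like cells, and ATPsynC alone 3.33% and 12.2%. ATPsynC had 203 CPM in PupC-like and 2101 CPM in progenitor-like cells (log2 −3.37), ATPsyndelta 36.2 and 337 CPM (log2 −3.22) and ATPsynbeta 93.0 and 828 CPM (log2 −3.16). The alpha subunit gene blw, outside the naming rule, had 95.1 and 645 CPM (log2 −2.76). ATPsynG, by contrast, had 370 and 795 CPM (log2 −1.10), so subunits of 1 enzyme differed among themselves.

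Complex II was the exception, and within it SdhA. SdhA (2R, 19391863 to 19395971) had 376 CPM in PupC-like cells (361 to 392) and 83.4 CPM in progenitor-like cells (log2 2.17, 2.04 to 2.32). SdhB was nearly level at 112 and 109 CPM (log2 0.03), SdhC was lower at 78.8 and 170 CPM (log2 −1.11), and SdhD was lower at 17.4 and 77.6 CPM (log2 −2.15). The 4 subunits of complex II are present in equal numbers in the enzyme. Their RNA levels were unequal in PupC-like cells and also in progenitor-like cells, and a level compared between genes depends on how well each 3′ end is annotated. SdhA and UQCR-11L (100 and 6 UMIs) were the 2 members higher by over 2-fold. ND-SGDH (256 and 167 CPM, log2 0.61), ND-51, the flavoprotein of complex I (93.3 and 68.2 CPM, log2 0.45), and UQCR-6.4 (152 and 132 CPM, log2 0.21) were also above 0.

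Other carbon metabolism genes in PupC-like cells showed mixed values. Of 12 glycolysis genes counted, 7 were over 2-fold higher than in progenitor-like cells and 3 lower, with a median of 1.23, where 19.1% of all genes were higher and 56.6% lower, with a median of −1.33. Pgi had 1021 CPM in PupC-like and 69.6 CPM in progenitor-like cells, and Hex-A, a hexokinase, 1222 and 448 CPM. Of 72 mitochondrial ribosome genes, 67 were over 2-fold lower (median −2.86), and of 82 cytoplasmic ribosomal protein genes 78 were (median −1.65). Of 9 carriers and regulators, 8 were over 2-fold lower (median −3.54), among them sesB with 73.8 and 859.5 CPM.

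The mt: genes are given beside the nuclear members. The 13 mt: mRNAs together had 31338 CPM in early pupae, 29117 CPM in immature adults and 32532 CPM in mature adults over all cells, and the 2 rRNAs had 35541, 26936 and 22475 CPM. Of the mRNAs, mt:CoIII, mt:CoII, mt:CoI, mt:ATPase6 and mt:Cyt-b were the highest in each library, from 2801 to 7666 CPM. mt:ND5, mt:ND4, mt:ND1 and mt:ND3 followed with 901 to 1593 CPM, mt:ND6 and mt:ND2 had 450 to 603 CPM, and mt:ATPase8 and mt:ND4L, which share transcripts with neighbours, had 37.4 to 95.3 CPM. The rRNA sum was nearly all mt:lrRNA, with 33240, 25280 and 20807 CPM, against 2301, 1657 and 1668 CPM for mt:srRNA. The share of mt: UMIs was itself part of the filter on cells, and the direction of the mt: mRNA differences between libraries turned with that filter and with the denominator.

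EC-like cells had less mt: mRNA than progenitor-like cells in each library, with 17521 and 41448 CPM in early pupae, 20162 and 35128 CPM in immature adults, and 29585 and 50710 CPM in mature adults. These are log2 ratios of −1.24, −0.80 and −0.78. Their size depended on depth, and no alternative was run for them. EC-like cells of mature adults had 57748 CPM at over 1000 and up to 3000 UMIs and 26994 CPM at over 30000 UMIs. At over 3000 and up to 10000 UMIs they had 46200 CPM, against 55372 CPM in progenitor-like cells. The ratio of nuclear member UMIs to mt: mRNA UMIs was 2.48 in EC-like and 0.414 in progenitor-like cells of early pupae, 3.51 and 0.547 in immature adults, and 0.743 and 0.237 in mature adults. In PupC-like cells of early pupae it was 0.130. There the mt: mRNA sum, 46829 CPM, was 1.13 times that of progenitor-like cells, but single mRNAs differed in direction. mt:ATPase6 had 11220 CPM in PupC-like and 5338 CPM in progenitor-like cells (log2 1.07) and mt:CoIII 12823 and 7361 CPM (log2 0.80), whereas mt:ND3 had 378 and 2230 CPM (log2 −2.56) and mt:ND1 485 and 2258 CPM (log2 −2.22).

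Within classes, the step into the immature stage was larger in EC-like than in progenitor-like cells, as values without a test. EC-like cells of immature adults had 1.63 times the summed level of those of early pupae (log2 0.70, 0.70 to 0.71), and 9 of 62 members were over 2-fold higher, against 15.6% of all genes, and 0 lower, against 17.8%. The median member ratio was 0.61 where that of all genes was −0.13, and 61 of 62 were above 0. ND-MLRQ had 3042 CPM in EC-like cells of immature adults and 1058 CPM in those of early pupae (log2 1.52), UQCR-6.4 1118 and 393 CPM (log2 1.51) and ND-AGGG 376 and 135 CPM (log2 1.48). ND-MNLL (45.6 and 47.4 CPM), Sdhaf3 (119 and 269 UMIs, log2 0.02 of the levels) and ND-15 (630 and 600 CPM, log2 0.07) were lowest.

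In progenitor-like cells immature adults had 1.12 times the level of early pupae (log2 0.16, 0.15 to 0.17). Here 0 of 60 members were over 2-fold higher, against 5.35% of all genes, and 0 lower, against 15.2%. The members lay between UQCR-C2 (210 CPM in immature adults and 147 CPM in early pupae, log2 0.51) and UQCR-11 (286 and 405 CPM, log2 −0.50).

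The step into the mature stage had a lower level at the later stage in both classes. EC-like cells of mature adults had 0.311 times the summed level of those of immature adults (log2 −1.69, −1.69 to −1.68), and 62 of 63 members were over 2-fold lower, against 39.5% of all genes, with 0 higher, against 6.15%. The median member ratio was −1.59, against −0.80 for all genes. Without the 50 most abundant genes in the denominator the ratio of the sums was −0.99. ATPsynF had 733 CPM in mature adults and 4181 CPM in immature adults (log2 −2.51), UQCR-C2 263 and 1325 CPM (log2 −2.33) and Sdhaf3 5.07 and 25.5 CPM (log2 −2.33). COX4 (801 and 1667 CPM, log2 −1.06) and COX6B (996 and 2077 CPM, log2 −1.06) differed least after UQCR-11L, the member that was not past 2-fold. In the same cells 70 of 72 mitochondrial ribosome genes, 8 of 10 TCA cycle genes and 11 of 13 glycolysis genes were over 2-fold lower, and the mt: mRNA sum was 1.47 times as high.

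EC-like cells of immature adults were shallow, with a median of 4580 UMIs against 13698 UMIs in mature adults. By depth, their summed level was 48308 CPM in 102 cells with over 1000 and up to 3000 UMIs, 58136 CPM in 172 cells up to 10000 UMIs, 52981 CPM in 74 cells up to 30000 UMIs and 87015 CPM in 38 cells up to 100000 UMIs. In EC-like cells of mature adults the same depths gave 24324, 28704, 20782 and 21795 CPM, so the lowest value of immature adults was above the highest of mature adults. The 38 deepest cells of immature adults had the highest level, and deep cells weigh most in a sum over UMIs. With each cell weighing the same, the mean member share was 5.68% in EC-like cells of immature adults and 2.36% in those of mature adults. Ratios restricted to cells with more than 5000 UMIs, a choice made after seeing the data, were −1.72 for this step and 0.71 for the step before it.

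In progenitor-like cells mature adults had 0.625 times the summed level of immature adults (log2 −0.68, −0.69 to −0.67). All 60 members counted were below 0, with a median of −0.58, whereas the median of all genes was 0.18. Of the 60, 4 were over 2-fold lower, against 2.53% of all genes, and 0 higher, against 5.87%. They were ATPsynO (197 CPM in mature adults and 412 CPM in immature adults, log2 −1.07), COX6B (381 and 795 CPM, log2 −1.06), ATPsynF (414 and 832 CPM, log2 −1.01) and ATPsyngamma (241 and 483 CPM). The mt: mRNA sum of these cells was 1.44 times as high in mature adults. The ratio of the member sums stayed between −0.60 and −0.77 under the 9 alternatives. EE-like cells of mature adults had 0.659 times the summed level of those of immature adults. There 58 of 60 members were below 0, but no value over all genes is given for EE-like cells. That count is therefore no result about the members.

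**Figure D4:**
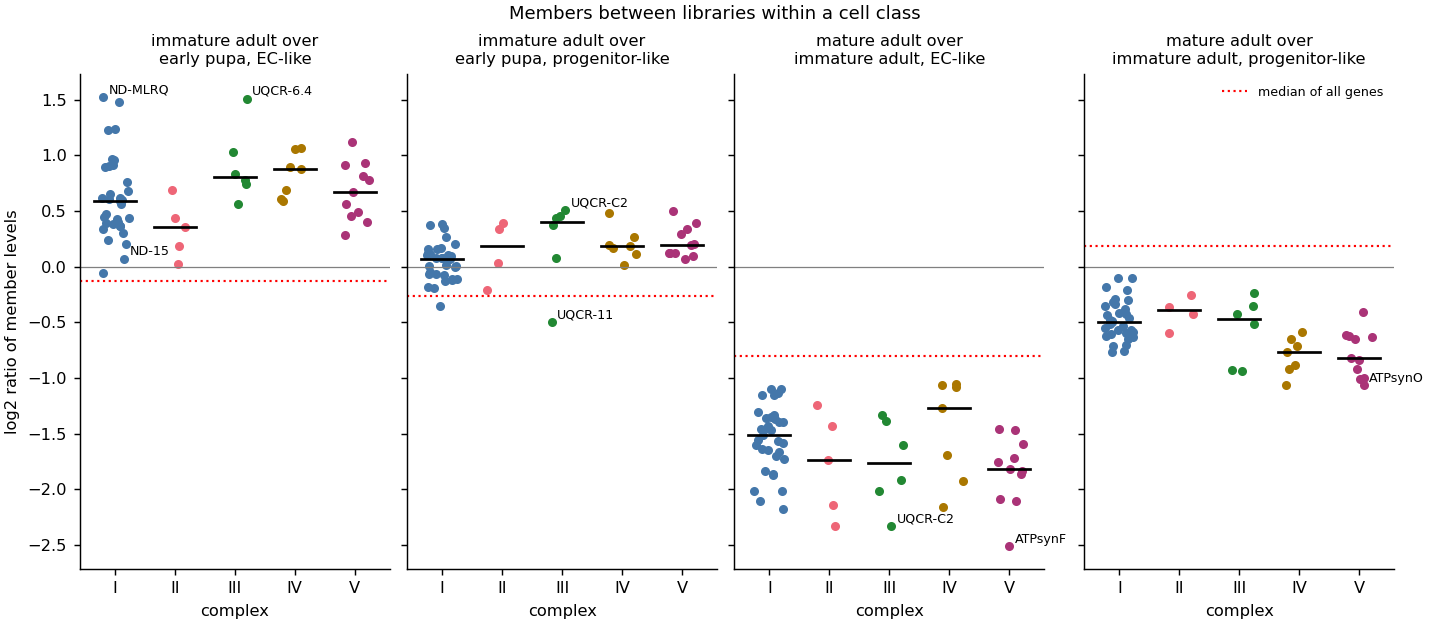
Log2 ratio of each member's level between libraries within EC-like and within progenitor-like cells, by complex; points are genes, black lines medians of a complex and red dotted lines the median of all genes. Members with under 100 UMIs in a pair and UQCR-11L are left out. In the first panel all points but ND-MNLL lie above 0, and in both panels of mature over immature adults all points lie below it.

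The share of EC-like cells differed between libraries. EC-like cells held 39.8%, 21.6% and 83.3% of all UMIs and 68.8%, 48.4% and 89.0% of the member UMIs in stage order. Taking the EC-, EE- and progenitor-like cells together, the log2 ratio of mature adults over immature adults was −0.59 as measured and −1.11 with the classes weighed as in immature adults. That of immature adults over early pupae was −0.07 as measured and 0.60 with the classes weighed as in early pupae. The measured value was opposite in direction to that over all kept cells, so the order of these stages depended on the cells taken.

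Single cells of a class varied as well, as the plot of shares per cell shows. The member share of a cell's UMIs had a median of 3.75% in EC-like and 1.59% in progenitor-like cells of early pupae, 5.26% and 1.79% in immature adults, and 2.11% and 1.18% in mature adults. The range between the 5th and the 95th percentile was 2.69% to 9.47% in EC-like cells of immature adults and 1.01% to 2.91% in its progenitor-like cells, so most but not all cells of these classes were apart. In mature adults it was 1.23% to 4.32% in EC-like and 0.758% to 1.78% in progenitor-like cells, and the ranges overlapped. PupC-like cells of early pupae had a median of 0.644%, and 0.294% to 1.74% between these percentiles.

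**Figure D5:**
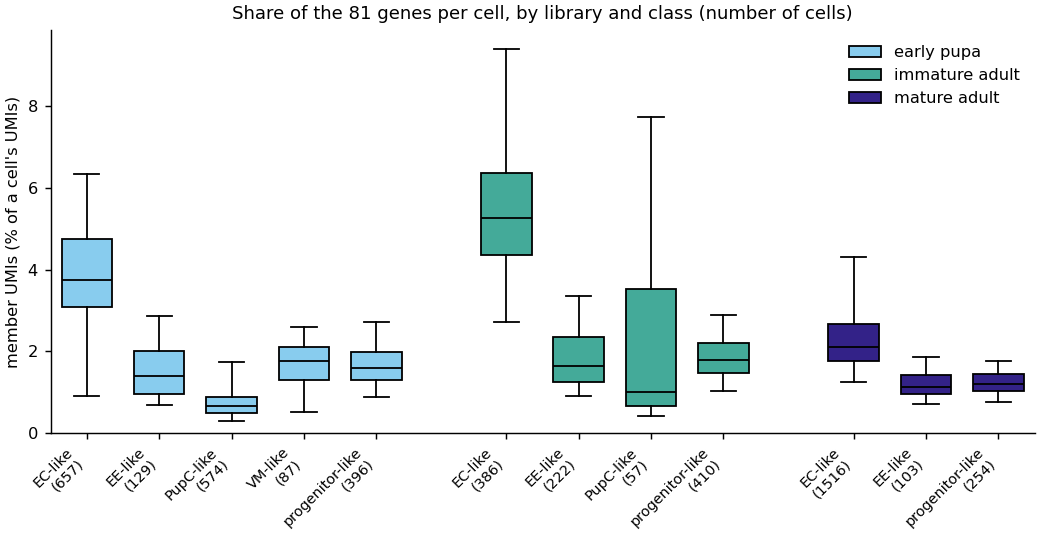
Share of the 81 genes in a cell's UMIs (%) by library and class, with the number of cells in brackets; boxes span the quartiles with the median as a line, and whiskers reach the 5th and 95th percentiles of cells. EC-like boxes are the highest in each library (medians 3.75%, 5.26% and 2.11%), and PupC-like cells of early pupae are the lowest (0.644%).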

How the data were processed

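Intestines were dissociated and single-cell libraries made with the 10x Genomics 3′ kit (v3.1, per the labels). The authors aligned the reads to the *Drosophila* reference genome 6.25 with Cell Ranger 3.0.2, and the deposited values are raw UMI counts per gene and barcode, without normalization. Whether intronic reads were counted is not given in the sources used here. Cells were filtered with the limits of the study's methods. Doublets were not removed, since the methods name no such step.

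UMIs were summed over cells and divided by all UMIs of those cells. Intervals are exact at 95%, Poisson for sums and conditional on the summed counts for ratios. A check on simulated Poisson counts used the same model as the intervals, so it left out variation between cells and between libraries. With 1 library per stage no test or p-value was computed, and a member counts as past 2-fold by its ratio alone, with at least 100 UMIs in both groups together. Where a group had 0 UMIs the ratio was taken against 3. Marker scores scaled log(1 + UMIs per 10000) by the 99th percentile over kept cells. The marker genes, partly drawn by the study from these same libraries, were listed first, and the rule for scoring was chosen with the data in view. For an alternative, the libraries were integrated and clustered in R 4.3.3 with Seurat 5.3.0 (14 components, resolution 0.5) without member or mt: genes. Other steps ran in Python (version 3.11.15), using scipy 1.17.1, numpy 2.4.6, matplotlib 3.10.9 and pandas 2.3.3. Gene positions were taken by identifier from BDGP6, which held all 81 members.

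Members named are all restricted paralogs and their partners, the 2 highest per complex, the 3 largest and 3 smallest ratios of each comparison of libraries over all cells and of EC-like over progenitor-like cells in the mature adult, the mt: genes and the OXPHOS genes outside the prefixes. Other genes were named after their values were seen. The members, gene lists and this rule were chosen with earlier results of these data known.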

Additional observations from a re-analysis of the deposited data

Results flagged for a closer look

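The same contrast had opposite directions in different libraries or classes for the results given here, with counting intervals off 0 on both sides. The differences themselves were not tested, since there was 1 library per stage. The nuclear sum of PupC-like over progenitor-like cells was 0.40 on the log2 scale in immature adults and −1.49 in early pupae. Complex I had 0.66 and −1.22, complex III 0.67 and −1.18, complex IV 0.44 and −1.49 and complex V 0.096 and −2.11 in the same libraries. The immature adult gate held only 57 cells with a median of 2442 UMIs, 11 of them near its limits, and their member share had quartiles of 0.658% and 3.52%. The value there was not stable, at −0.25 without ribosomal protein genes in the denominator, −0.0035 with a stricter gate and −1.09 with classes from clusters.

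The mt: mRNA sum of the immature adult over the early pupa was 0.20 in EC-like cells, −0.24 in progenitor-like cells and −0.54 in EE-like cells. The complex IV sum of EE-like over progenitor-like cells was 0.074 in immature adults and 0.22 in mature adults, but −0.049 in early pupae.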

How the results depend on the processing

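No paired analysis was possible because there was 1 library per stage and every library carried the same replicate number. Each choice was changed alone: the limit on the mt: share, the denominator (without mt: genes, without the 50 most abundant genes, or without ribosomal protein (Rp) genes), equal weight for each cell, a stricter gate, classes from clusters, the minimum of UMIs and the fold. Restriction to deep cells (over 5000 UMIs) was added after seeing the data. For a log2 ratio, a change here means that it moved past its own counting interval, which is narrow. A count of members has no such interval and no direction, so its change was judged by size alone. The values of the main comparisons hold both kinds. Of these values 47 did not change, 121 changed without turning and 9 turned, which only a ratio can do. The cause was not tested. All levels are log2 ratios.

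The share of all genes past 2-fold was taken under the main settings only. It was 12.9% higher and 16.2% lower for immature adults over early pupae. For mature over immature adults it was 5.71% and 50.8%, and for mature adults over early pupae 7.73% and 46.6%. Counts of members under the alternatives have no such share beside them and are no result about the members. For the count of members past 2-fold, immature adult over early pupa, higher, the main value 0 became 3 without Rp genes, 3 per cell and 5 at 1.5-fold. For the count of members past 2-fold, immature adult over early pupa, lower, the main value 1 became 0 per cell and 2 with a minimum of 30 UMIs. For the count of members past 2-fold, mature adult over early pupa, higher, the main value 0 became 1 with a minimum of 30 UMIs. For the count of members past 2-fold, mature adult over early pupa, lower, the main value 5 became 1 without the top 50, 1 per cell and 16 at 1.5-fold. For the count of members past 2-fold, mature adult over immature adult, higher, the main value 0 became 1 without the top 50, 1 with a minimum of 30 UMIs and 1 at 1.5-fold. For the count of members past 2-fold, mature adult over immature adult, lower, the main value 4 became 0 without the top 50, 21 without Rp genes, 2 per cell and 30 at 1.5-fold. For the mt: mRNAs, immature adult over early pupa, the main value −0.11 became 0.24 with mt: below 10%, −0.16 without an mt: limit, −0.12 per non-mt: UMIs, −0.24 without the top 50, 0.14 without Rp genes and −0.36 per cell. For the mt: mRNAs, mature adult over early pupa, the main value 0.054 became 0.33 with mt: below 10%, −0.19 without an mt: limit, 0.036 per non-mt: UMIs, 0.47 without the top 50, −0.0051 without Rp genes and 0.20 per cell. For the mt: mRNAs, mature adult over immature adult, the main value 0.16 became 0.084 with mt: below 10%, −0.028 without an mt: limit, 0.70 without the top 50, −0.14 without Rp genes and 0.56 per cell. For the mt: rRNAs, immature adult over early pupa, the main value −0.40 became −0.096 with mt: below 10%, −0.17 without an mt: limit, −0.42 per non-mt: UMIs, −0.53 without the top 50, −0.15 without Rp genes and −0.48 per cell. For the mt: rRNAs, mature adult over early pupa, the main value −0.66 became −0.59 with mt: below 10%, −0.70 without an mt: limit, −0.68 per non-mt: UMIs, −0.25 without the top 50, −0.72 without Rp genes and −0.49 per cell. For the mt: rRNAs, mature adult over immature adult, the main value −0.26 became −0.49 with mt: below 10%, −0.53 without an mt: limit, 0.28 without the top 50, −0.57 without Rp genes and −0.011 per cell.

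For the members, EC-like over progenitor-like, early pupa, the main value 1.34 became 1.40 with mt: below 10%, 1.28 without an mt: limit, 1.26 per non-mt: UMIs, 1.59 without the top 50, 1.17 without Rp genes, 1.22 per cell, 1.35 in deep cells, 1.36 with the strict gate and 1.32 by cluster. For the members, EC-like over progenitor-like, immature adult, the main value 1.88 became 1.98 with mt: below 10%, 1.70 without an mt: limit, 1.85 per non-mt: UMIs, 1.68 without the top 50, 1.40 without Rp genes, 1.60 per cell, 1.91 in deep cells and 1.84 by cluster. For the members, EC-like over progenitor-like, mature adult, the main value 0.87 became 0.83 without an mt: limit, 0.83 per non-mt: UMIs, 1.47 without the top 50, 0.32 without Rp genes, 0.94 per cell, 0.92 with the strict gate and 0.86 by cluster. For the members, PupC-like over progenitor-like, early pupa, the main value −1.49 became −1.42 with mt: below 10%, −0.999 without the top 50, −1.96 without Rp genes, −1.13 per cell, −1.57 in deep cells, −1.57 with the strict gate and −1.45 by cluster. For the members, immature adult over early pupa, EC-like, the main value 0.70 became 0.78 with mt: below 10%, 0.59 without an mt: limit, 0.71 per non-mt: UMIs, 0.42 without the top 50, 0.56 per cell, 0.71 in deep cells, 0.68 with the strict gate and 0.68 by cluster. For the members, immature adult over early pupa, progenitor-like, the main value 0.16 became 0.20 with mt: below 10%, 0.18 without an mt: limit, 0.12 per non-mt: UMIs, 0.29 without the top 50, 0.46 without Rp genes and 0.15 by cluster. For the members, mature adult over immature adult, EC-like, the main value −1.69 became −1.81 with mt: below 10%, −1.53 without an mt: limit, −1.67 per non-mt: UMIs, −0.99 without the top 50, −1.86 without Rp genes, −1.27 per cell, −1.72 in deep cells, −1.64 with the strict gate and −1.65 by cluster. For the members, mature adult over immature adult, progenitor-like, the main value −0.68 became −0.70 with mt: below 10%, −0.65 per non-mt: UMIs, −0.74 without the top 50, −0.77 without Rp genes, −0.60 per cell and −0.66 by cluster. For the members, immature adult over early pupa, the main value 0.33 became 0.21 with mt: below 10%, 0.38 without an mt: limit, 0.31 per non-mt: UMIs, 0.20 without the top 50, 0.58 without Rp genes, 0.65 per cell and 0.28 in deep cells. For the members, mature adult over early pupa, the main value −0.29 became −0.42 with mt: below 10%, −0.23 without an mt: limit, −0.31 per non-mt: UMIs, 0.13 without the top 50, −0.35 without Rp genes, 0.021 per cell and −0.30 in deep cells. For the members, mature adult over immature adult, the main value −0.62 became −0.64 with mt: below 10%, −0.60 without an mt: limit, −0.076 without the top 50, −0.92 without Rp genes, −0.63 per cell and −0.59 in deep cells. For the members, PupC-like over progenitor-like, immature adult, the main value 0.40 became −0.25 without Rp genes, −0.0035 with the strict gate and −1.09 by cluster. For complex I, mature adult over early pupa, the main value −0.27 became 0.15 without the top 50 and 0.048 per cell. For complex I, mature adult over immature adult, the main value −0.54 became 0.0056 without the top 50. For complex II, immature adult over early pupa, the main value −0.018 became 0.031 without an mt: limit, 0.23 without Rp genes and 0.31 per cell. For complex III, mature adult over early pupa, the main value −0.18 became 0.23 without the top 50 and 0.12 per cell. For complex IV, mature adult over early pupa, the main value −0.01 became 0.048 without an mt: limit, 0.41 without the top 50 and 0.27 per cell. For complex IV, mature adult over immature adult, the main value −0.46 became 0.084 without the top 50. Depth limits the restricted paralogs, most of which had counts near 0, and the PupC-like cells of immature adults, too few for a value in deep cells.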
